A study of Macaca mulatta with 24 samples.

Results

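The genes described are those that build cholesterol, sense it and move it in the nucleus accumbens core (NAcc) of the rhesus macaque (Macaca mulatta), measured by RNA-Seq in 24 adult males. They were chosen by symbol from a list of 30, of which 29 were found among the 17208 gene symbols in the data. The remaining symbol, SC5D, was not present, but RefSeq lists SC5DL as its synonym, and that row is given beside the others and not counted among the 29. By role, 7 genes act in the mevalonate and isoprenoid steps, 10 in the steps from squalene to cholesterol, 5 in the control of the SREBP transcription factors and 7 in transport, efflux and turnover.

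The animals belonged to 3 groups of 8. Drinkers were induced to drink 4% (w/v) ethanol by schedule-induced polydipsia and then had 22 h of access a day for 12 months, with water on a second spout. Controls underwent the same procedure with water on both spouts and received a maltose dextrin solution to balance calories. Low/binge drinkers (LD*) took 0.47 to 2.07 g/kg of ethanol a day, with a mean of 1.58 g/kg (n = 8). The heavy/very heavy drinkers (HD*) comprised 4 heavy drinkers (HD), at 2.74 to 3.09 g/kg, and 4 very heavy drinkers (VHD), at 3.09 to 3.78 g/kg. Tissue was taken at the end of access without imposed abstinence, so an effect of recent ethanol and one of long drinking cannot be told apart. The paper reports that blood ethanol was trace or undetected when the tissue was taken. The animals came from 4 cohorts, and controls and HD* animals occurred together only in cohorts 5 and 7a, with 3 and 2 controls and 4 HD* animals in each. Drinking was voluntary, so the categories describe what each animal chose to drink and were not assigned.

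Cholesterol does not cross into the brain from the blood in useful amounts, and the brain makes its own. HMGCS1 and the enzymes after it turn acetyl units into mevalonate and isoprenoids, FDFT1 and SQLE commit these to sterols, and the later enzymes trim lanosterol to cholesterol. When sterol in the endoplasmic reticulum is low, SCAP escorts SREBF2 and SREBF1 to the Golgi for activation, while INSIG1 and INSIG2 hold SCAP back when sterol is plentiful. Oligodendrocytes use much cholesterol for myelin, astrocytes export it on APOE particles through ABCA1 and ABCG1, lysosomal NPC1 and NPC2 release what is taken up, and neurons dispose of the excess through CYP46A1.

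The values are TPM, shares of a fixed total, so the reads behind each value are unknown and no counting error is given. The deposited table is named for normalised counts, but each library sums to about 1000000 and its low values rarely tie, with 93.2 to 95.4% of the values between 0 and 1 distinct, as they are when each gene is scaled by its own length. On that reading, levels can be compared between genes. For each animal a cell-type score was taken as the mean over a list of marker genes of log2(TPM + 1), centred over the animals. All 12 striatal neuron markers, 14 oligodendrocyte markers, 11 astrocyte markers and 10 microglia markers were detected. One animal, control 6, stood apart from its label as NAcc tissue. All 12 striatal neuron markers were below every other animal in it, and 13 of 14 oligodendrocyte markers were above every other animal. Of 4 general neuron markers, 1 was below every other animal and 1 above. Of the 11 astrocyte markers, 1 was below and 5 were above. DRD1, the D1 dopamine receptor, was at 8.14 TPM in control 6 and between 53.4 and 274 TPM in the other 23 animals. Its striatal neuron score was -3.06, against -1.04 to 0.95 in the other controls. Values of named genes that moved by more than 1.5 times without this animal are given both ways.

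The 29 genes covered a wide range of levels, and all averaged 1 TPM or more. The median of their mean levels was 54.3 TPM, beside 20.1 TPM over the 13637 genes tested. Within the mevalonate steps the highest was FDPS, which makes farnesyl pyrophosphate, with a level of 149 ± 23.0 TPM (SD, n = 24, as for the other levels in this paragraph and the next). PMVK, the kinase acting on phosphomevalonate, was at 111 ± 22.9 TPM, and ACAT2, a thiolase that forms acetoacetyl-CoA, at 86.2 ± 16.6 TPM. HMGCS1, HMG-CoA synthase, was at 59.7 ± 21.0 TPM. MVD, the decarboxylase, was at 59.0 ± 15.3 TPM and IDI1, the isomerase, at 54.4 ± 12.0 TPM. MVK, mevalonate kinase, was the lowest of the class at 21.5 ± 4.16 TPM.

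In the sterol steps FDFT1, squalene synthase, was at 122 ± 24.5 TPM and MSMO1, which removes methyl groups from the sterol ring, at 102 ± 29.3 TPM. SQLE, squalene epoxidase, was at 59.6 ± 22.0 TPM, while LSS, which closes the ring to lanosterol, was at 19.3 ± 4.11 TPM. The enzymes CYP51A1, EBP, TM7SF2, NSDHL and DHCR7 lay between 39.9 and 54.3 TPM, HSD17B7 was at 19.8 ± 3.46 TPM, and the SC5DL row was at 30.1 ± 8.94 TPM. Of the regulators, SREBF2 was at 266 ± 39.4 TPM and SREBF1 at 54.1 ± 15.9 TPM, so the factor best known for sterol genes was the more abundant. SCAP was at 87.4 ± 12.8 TPM, INSIG1 at 32.8 ± 8.44 TPM and INSIG2 at 23.8 ± 4.78 TPM. Both extremes of the 29 were transport genes: the apolipoprotein APOE at 4033 ± 1222 TPM and the efflux pump ABCA1 at 8.98 ± 2.69 TPM. CYP46A1, the neuronal cholesterol hydroxylase, was the next highest after APOE at 637 ± 233 TPM. NPC2 was at 88.4 ± 22.1 TPM, ABCG1 at 37.2 ± 9.86 TPM, NPC1 at 26.1 ± 9.93 TPM and the sterol carrier STARD4 at 13.4 ± 5.27 TPM. In the order of control means, 26 of 28 neighbouring pairs differed by less than the sum of their SDs. The exceptions were APOE above CYP46A1 and SREBF2 above FDPS.

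**Figure D1:**
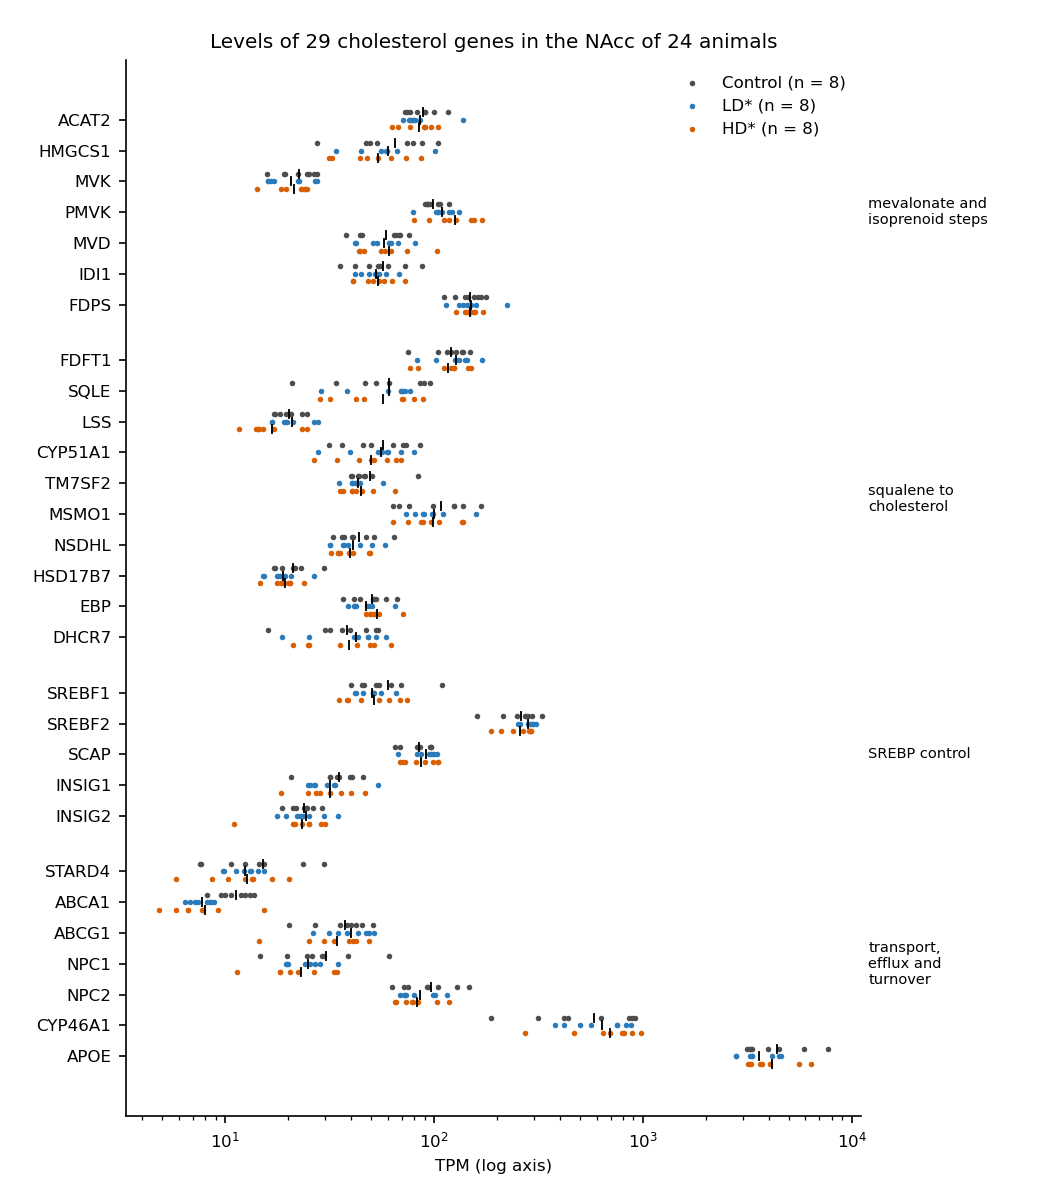
Level in TPM (log axis) of each of the 29 genes, with 1 point per animal and a black tick at the mean of each group (Control, LD* and HD*, n = 8 each). APOE and CYP46A1 have the highest means, at 4033 and 637 TPM, and ABCA1 has the lowest, at 8.98 TPM, with its LD* and most of its HD* points left of the control mean of 11.2 TPM.

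The spread between animals differed between the genes. The SD of log2(TPM + 1) over 24 animals had a median of 0.332 over the members and of 0.32 over all genes tested. It was largest for CYP46A1 at 0.635, SQLE at 0.603, DHCR7 at 0.532 and HMGCS1 at 0.512, and smallest for FDPS at 0.21. The highest animal had 5.27 times the CYP46A1 and 4.58 times the SQLE of the lowest animal, but only 2.01 times the FDPS.

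No cholesterol gene passed an adjusted p of 0.05 between HD* animals and controls, a share of 0% over all 13637 genes too (limma's test, Benjamini-Hochberg adjustment over all genes). This share holds for limma on TPM only. The study's own DESeq2 test on counts did call genes at an FDR under 0.05, both for HD* animals against controls and against LD* animals. The reason for the difference was not tested. At an unadjusted p under 0.05 there were 2 of 29, ABCA1 and PMVK, while 5.68% of all genes did so. The median log2 difference was -0.07 over the members and -0.12 over all genes, with 7 members above 0 and 22 below. TMM rescaling, which sets libraries level by a trimmed mean of their log ratios, moved the median of all genes to 0 and left 18 members above 0 and 11 below, so the prevailing sign depends on the scaling.

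ABCA1, the pump that loads cholesterol onto apolipoproteins, had a lowest, median and highest level of 8.22, 11.3 and 13.7 TPM in controls, 6.40, 7.81 and 8.82 TPM in LD* animals and 4.84, 7.20 and 15.4 TPM in HD* animals. Most HD* animals were below the lowest control, the next was at 9.25 TPM, and HD* 4 exceeded every control. The log2 difference of HD* from controls was -0.49 ± 0.15 (SE; exact permutation p = 0.0185, limma adjusted p = 0.706). Within cohorts it was -0.16 in cohort 5 and -0.63 in cohort 7a. PMVK was between 90.0 and 118 TPM in controls with a median of 94.8 TPM, between 78.9 and 131 TPM in LD* animals with a median of 107 TPM, and between 79.8 and 169 TPM in HD* animals with a median of 123 TPM. Its range in HD* animals enclosed the whole control range. The difference was 0.31 ± 0.13 (exact permutation p = 0.0465, limma adjusted p = 0.706), with 0.14 in cohort 5 and 0.41 in cohort 7a. LSS was between 17.2 and 24.5 TPM in controls with a median of 20.0 TPM, between 16.7 and 27.7 TPM in LD* animals with a median of 19.6 TPM, and between 11.7 and 24.5 TPM in HD* animals with a median of 14.8 TPM. Most HD* animals were below the lowest control, but the highest HD* animal matched the highest control. Its difference was -0.28 ± 0.14 (limma adjusted p = 0.706). The lysosomal genes NPC1 and NPC2 differed by -0.34 ± 0.22 and -0.19 ± 0.16, with limma adjusted p-values of 0.706 and 0.712. NPC1 moved to -0.10 with the oligodendrocyte score as a covariate and to -0.09 within cohorts 5 and 7a alone, and NPC2 to -0.08 and -0.05. NPC2 was also at -0.06 with cohort as a covariate, -0.05 with the striatal neuron score and -0.06 after TMM rescaling. Without control 6 the differences were -0.19 for NPC1 and -0.10 for NPC2. The paper lists NPC2 among its differentially expressed genes that a human study had also found.

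LD* animals did not differ from controls in any of these genes at an adjusted p of 0.05, and again 0% of all genes did. ABCA1 alone had an unadjusted p under 0.05, a rule that 2.84% of all genes met. All 8 LD* animals had less ABCA1 than 7 of the 8 controls, and the groups overlapped only through the control at 8.22 TPM. The log2 difference was -0.48 ± 0.15 (exact permutation p = 0.000622, limma adjusted p = 1), and fell to -0.31 with cohort as a covariate. It was -0.29 in cohort 7a and -0.52 in cohort 7b. The next by p were HSD17B7, a sterol reductase, at -0.16 ± 0.12, TM7SF2, another reductase of the ring, at -0.17 ± 0.14, APOE at -0.23 ± 0.19 and SREBF2 at 0.14 ± 0.12, each with a limma adjusted p of 1. Without control 6 HSD17B7 was at -0.09, TM7SF2 at -0.05 and SREBF2 at 0.05. The APOE difference ranged from -0.29 to -0.11 with 1 animal left out, and control 8 had the highest APOE level of all animals, at 7658 TPM. Both comparisons of ABCA1 share the same 8 controls. Between HD* and LD* animals ABCA1 had an exact permutation p of 0.945.

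Between HD* and LD* animals no member was called, again with 0% of all genes, and 1 of 29 had an unadjusted p under 0.05, beside 1.08% of all genes. That gene was LSS, at -0.31 ± 0.14 (exact permutation p = 0.0626, limma adjusted p = 0.937). The others nearest were EBP, a sterol isomerase, at 0.19 ± 0.12, PMVK at 0.19 ± 0.13, ABCG1 at -0.27 ± 0.21 and SREBF2 at -0.15 ± 0.12, each with a limma adjusted p of 0.937. The SC5DL row had limma adjusted p-values of 0.706, 1 and 0.937 in the 3 comparisons.

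**Figure D2:**
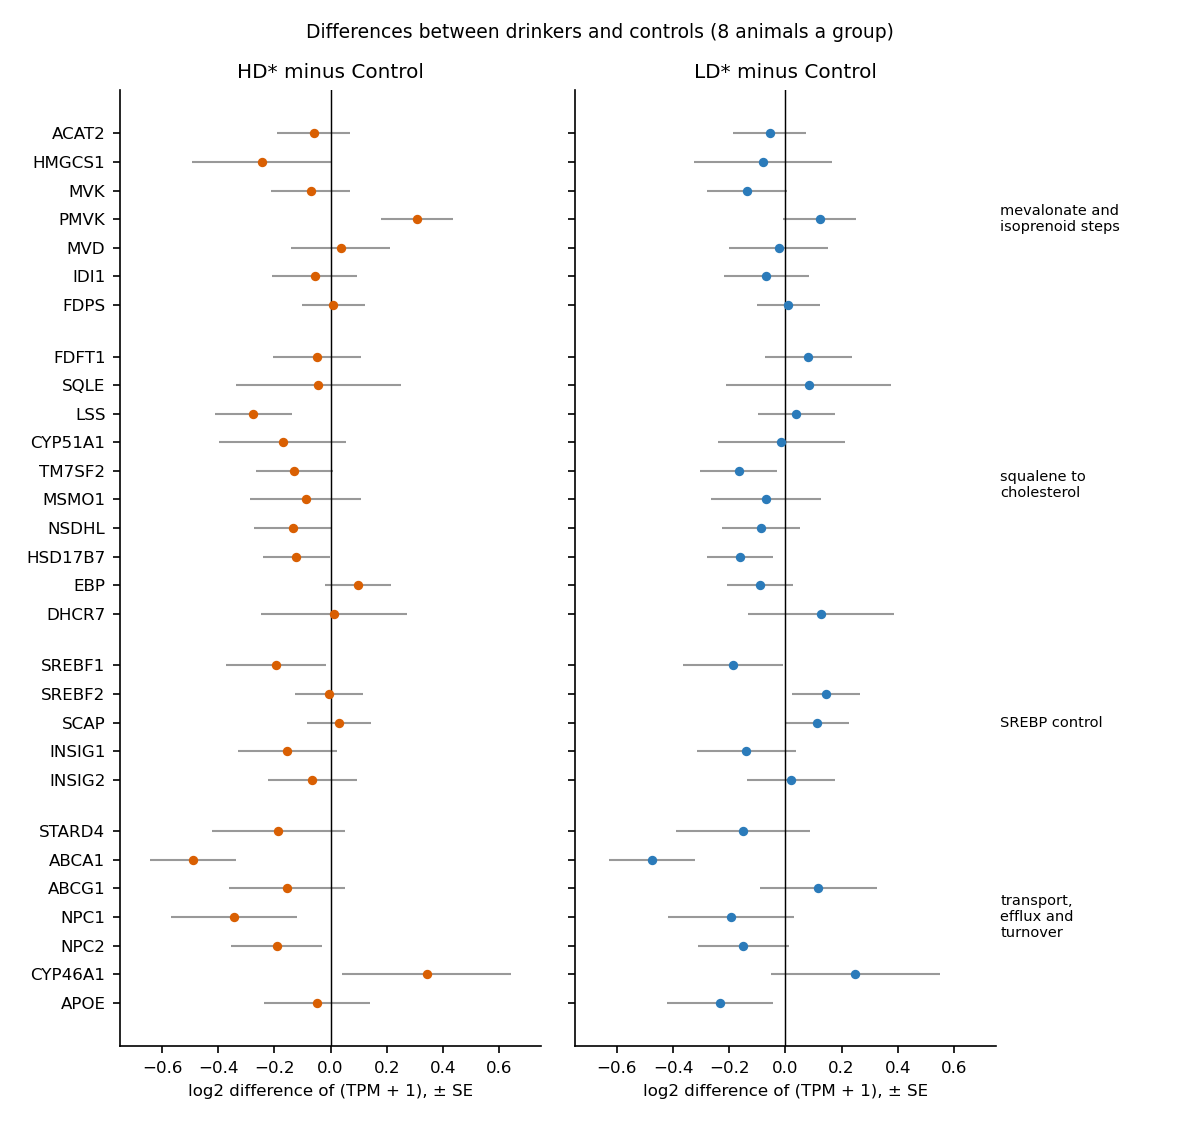
Log2 difference of (TPM + 1) from controls with its standard error for each gene, for HD* animals on the left and LD* animals on the right (8 animals in each group). ABCA1 lies lowest in both panels, at -0.49 and -0.48, and both are set against the same controls.

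Within the HD* group, VHD animals were compared with HD animals, and the daily intakes of these categories met at 3.09 g/kg. Of the 29 genes, 9 were lower in VHD than in HD animals and 0 were higher at an adjusted p of 0.05, beside 11.4% of all genes lower and 3.23% higher. By role these were HMGCS1 and MVD of the mevalonate steps, SQLE, CYP51A1, MSMO1 and DHCR7 of the sterol steps, SCAP of the regulators, and ABCG1 and CYP46A1 of the transport genes. At the adjusted p of 0.001 that the study used for this comparison, no member and no gene passed by limma on TPM. The study's own analysis did report genes that passed it. The median log2 difference was -0.32 over the members and -0.17 over all genes.

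SQLE was at 80.1 and 69.9 TPM in the HD animals of cohort 5 and at 70.9 and 88.4 TPM in those of cohort 7a. In VHD animals it was at 46.3 and 42.3 TPM in cohort 5 and at 31.7 and 28.3 TPM in cohort 7a. Every VHD animal was below every HD animal, while controls covered both ranges, from 20.9 to 95.7 TPM. The difference was -1.06 ± 0.18 on the log2 scale (limma adjusted p = 0.00592), with -0.75 in cohort 5 and -1.37 in cohort 7a. DHCR7, which catalyses the last reduction to cholesterol, was at 42.8, 51.3, 49.6 and 62.4 TPM in HD animals and at 35.4, 25.0, 21.1 and 25.2 TPM in VHD animals. The 2 sets did not overlap, and the difference was -0.94 ± 0.18 (limma adjusted p = 0.00958). HMGCS1 was at 73.6, 62.4, 53.9 and 86.3 TPM in HD animals and at 44.0, 47.9, 31.4 and 32.5 TPM in VHD animals, again without overlap. Its difference was -0.81 ± 0.19 (limma adjusted p = 0.0182). For each of these 3 genes the exact permutation p was 0.0286, the smallest that 4 animals against 4 can give.

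The other 6 called genes had differences of -0.42 for SCAP, -0.59 for MSMO1, -0.61 for MVD, -0.69 for CYP51A1, -0.77 for ABCG1 and -0.82 for CYP46A1, with limma adjusted p-values between 0.0322 and 0.0438. Every VHD animal was below every HD animal for 10 members, these 9 and FDFT1, beside 17.9% of all genes. For APOE alone every VHD animal was above every HD animal, beside 5.39% of all genes, with a difference of 0.53 ± 0.18 that missed the threshold (limma adjusted p = 0.0696). SREBF2, at -0.32 ± 0.14, and INSIG1, at -0.35 ± 0.24, also missed it, with limma adjusted p-values of 0.142 and 0.319. Of all 29 members, 18 were lower in VHD animals in both cohorts, beside 45.2% of all genes, and 2 were higher in both, beside 22.4%. With cohort as a covariate 10 members were called lower, the same 9 and FDFT1, beside 16.1% of all genes. APOE was then called higher, beside 4.17% of all genes.

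**Figure D3:**
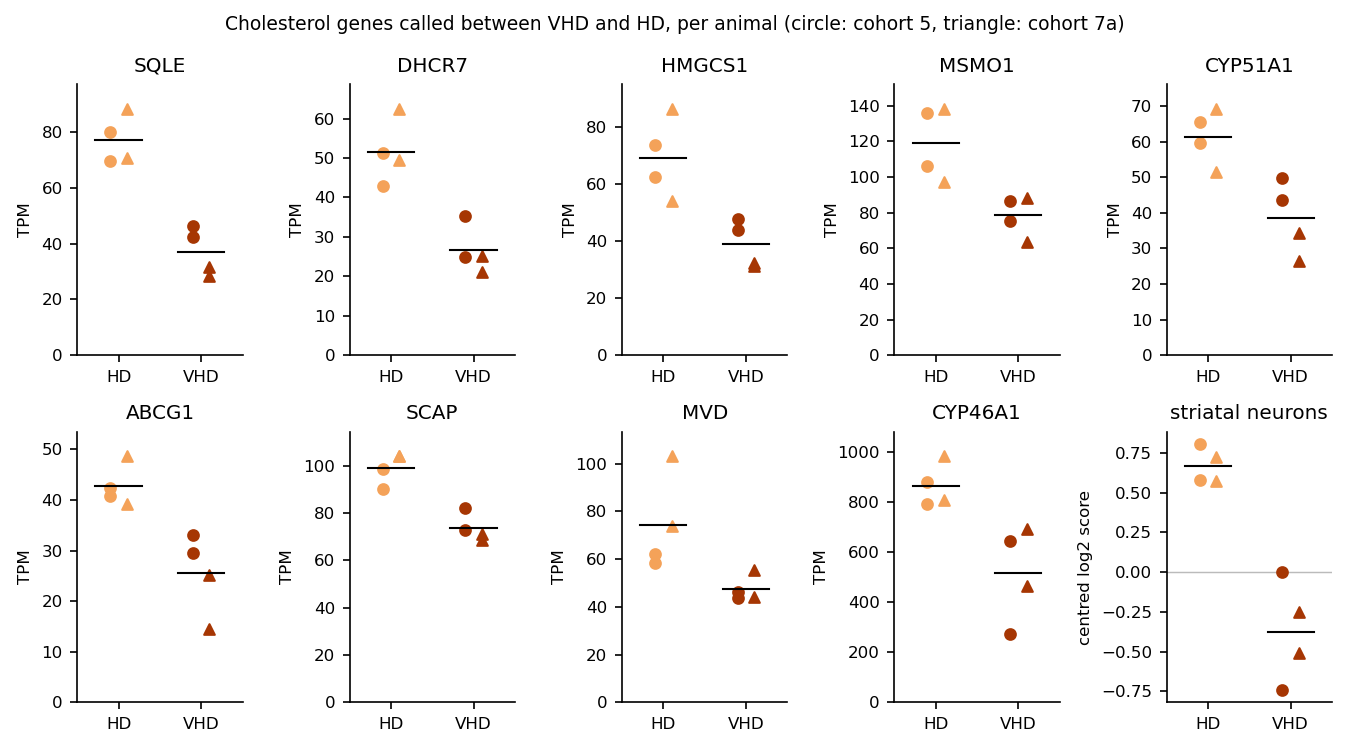
Level in TPM of the 9 called genes in each HD and VHD animal, with the striatal neuron score (centred log2) in the last panel. Circles are animals of cohort 5, triangles those of cohort 7a, and black bars are means of 4 animals. The VHD points lie below the HD points in every panel, the score included.

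Some of the marker lists differed between the same animals. The striatal neuron score was between 0.57 and 0.80 in HD animals and between -0.74 and 0.00 in VHD animals. The scores of 4 general neuron markers and 4 endothelial markers did not overlap either, at 0.17 to 0.41 against -0.82 to 0.02 and at -0.03 to 0.18 against -0.37 to -0.06. The astrocyte score overlapped, at -0.56 to 0.02 in HD and -0.23 to 0.61 in VHD animals, as did the microglia score, at -0.39 to 0.00 and -0.11 to 0.47, and the oligodendrocyte score, at -0.46 to 0.39 and -0.70 to 0.47. In summed levels, which follow the most abundant markers, both astrocyte and microglia lists were apart. The summed level of the striatal neuron markers was 9759 to 11378 TPM in HD and 3730 to 6590 TPM in VHD animals, that of the astrocyte markers 3843 to 5785 TPM and 7157 to 10485 TPM, and that of the microglia markers 339 to 434 TPM and 441 to 753 TPM, with no overlap in any of these 3 sums. That of the oligodendrocyte markers did overlap, at 2761 to 4741 TPM and 2663 to 5607 TPM. The median TPM over genes was 19.8 to 20.4 in HD animals and 12.7 to 22.0 in VHD animals. In bulk tissue, fewer cells of a type and less RNA per cell cannot be told apart. With the striatal neuron score or the microglia score as a covariate, alternatives chosen after seeing the data, no member was called and no gene of all those tested. The difference of SQLE was then -0.98 (limma adjusted p = 0.476) or -0.95 (limma adjusted p = 0.181), that of DHCR7 -0.48 or -0.62, and that of HMGCS1 -0.98 or -0.72. The part of the marker differences in the result was not tested.

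After TMM rescaling 5 members were lower in VHD animals (SQLE, DHCR7, HMGCS1, CYP51A1 and ABCG1) and 1 was higher, NPC2, beside 10.4% and 8.65% of all genes, with medians of -0.11 over the members and 0.00 over all genes. Leaving out HD* 2, HD* 6 or HD* 7 left 2 calls each, HD* 3 left 3 and HD* 5 left 4. No share over all genes is given for these fits, so a drop particular to the members cannot be read from them. SQLE and DHCR7 stayed under the threshold without any 1 animal, while HMGCS1 lost the call in 3 of 8 such fits, with a limma adjusted p of up to 0.0742.

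Daily intake over the 16 drinkers did not track these genes at the threshold, and 0% of all genes were called. At an unadjusted p under 0.05 there was no member, beside 6.65% of all genes. The smallest p-values belonged to the efflux pump ABCG1, with a slope of -0.22 ± 0.11 on the log2 scale per g/kg of ethanol a day, LSS at -0.16 ± 0.09 and SREBF2 at -0.09 ± 0.06, each with a limma adjusted p of 0.512. With cohort as a covariate the slopes were -0.54 for ABCG1, -0.36 for LSS and -0.15 for SREBF2, with limma adjusted p-values of 0.134, 0.154 and 0.352. After TMM rescaling LSS was at -0.09 and SREBF2 at -0.02.

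Cohorts, with group in the model, gave 0% of genes and no member at the adjusted threshold, and 3 members at an unadjusted p under 0.05, beside 8.36% of all genes. STARD4, which carries sterol between membranes, was at 18.8 ± 6.18 TPM in cohort 5 (SD, n = 7), 10.9 ± 3.17 TPM in cohort 7a (n = 9) and 11.4 ± 2.68 TPM in cohort 7b (n = 6), with a limma adjusted p of 0.54. SREBF1 was at 47.8 ± 12.3, 49.8 ± 10.9 and 68.4 ± 21.4 TPM in those cohorts, the last holding control 6 at 109 TPM. IDI1 was at 65.1 ± 12.9, 47.2 ± 8.78 and 53.0 ± 8.66 TPM. Their limma adjusted p-values were also 0.54. In cohort 4, with 2 animals, the means were 12.2 TPM for STARD4, 53.4 TPM for SREBF1 and 53.9 TPM for IDI1. The F value of SREBF1 was 4.41, and 2.72 without control 6. The effect of HD* against controls did not differ between cohorts 5 and 7a for any member, with 0% of genes called and 2.16% of genes but no member at an unadjusted p under 0.05. The nearest were EBP, with a difference of the effects of 0.45 ± 0.25, MVD at 0.65 ± 0.44 and MSMO1 at 0.55 ± 0.42, each with a limma adjusted p of 1.

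The oligodendrocyte score ranged from -0.90 to 1.62 over the animals. Of the members, 6 of 29 rose with it and 1 fell, beside 6.91% and 1.35% of all genes. NPC1, the lysosomal export protein, had the largest slope at 0.64 ± 0.10 (limma adjusted p = 3.39e-05). Its lowest, median and highest levels were 14.7, 27.4 and 60.8 TPM in controls, 19.5, 24.8 and 34.5 TPM in LD* animals and 11.4, 21.3 and 34.3 TPM in HD* animals. TM7SF2 had 39.9, 45.1 and 83.6 TPM in controls, 35.0, 42.1 and 57.0 TPM in LD* animals and 35.6, 41.4 and 65.0 TPM in HD* animals, and a slope of 0.35 ± 0.06 (limma adjusted p = 0.000561). SREBF1 had 40.1, 53.6 and 109 TPM in controls, 41.8, 51.1 and 65.9 TPM in LD* animals and 34.9, 49.5 and 74.1 TPM in HD* animals, and a slope of 0.45 ± 0.09 (limma adjusted p = 0.000805). The groups overlapped broadly for all 3 genes, and control 6 gave each of the highest values. INSIG1 rose by 0.34 ± 0.10 per unit of score (limma adjusted p = 0.0335) and ACAT2 by 0.24 ± 0.07 (limma adjusted p = 0.0359). NPC2 rose with a slope of 0.30, and PMVK fell by 0.26.

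Without control 6 the only member called was NPC1, at 0.57 ± 0.12 (limma adjusted p = 0.0029), beside 2.87% of all genes rising and 0.044% falling. TM7SF2 and SREBF1 then had limma adjusted p-values of 0.0555 and 0.055. Leaving out HD* 4 or LD* 4 left 3 calls, and leaving out HD* 1, HD* 5 or HD* 8 left 4. After TMM rescaling 3 members rose and 0 fell, beside 6.22% and 5.23% of all genes, and with group and cohort in the model 3 were called. NPC1 was called in each of these settings. The count over all genes for the model with group and cohort is given at the end. None is given for the fits that left out a drinker, so a drop particular to the members cannot be read from those.

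With the striatal neuron score 12 members rose and 6 fell, beside 22.3% and 20.1% of all genes. CYP46A1 rose with a slope of 0.67 ± 0.06 (limma adjusted p = 2.34e-10), NPC2 fell by 0.34 ± 0.04 per unit (limma adjusted p = 2.29e-07) and SREBF2 rose by 0.22 ± 0.04 (limma adjusted p = 2.69e-05). The other members that rose were HMGCS1, MVD and IDI1, then SQLE, CYP51A1, MSMO1 and DHCR7, and SCAP, STARD4 and ABCG1. Those that fell beside NPC2 were NSDHL, TM7SF2, HSD17B7, SREBF1 and APOE. The synthesis enzymes thus went both ways, with 7 rising and 3 falling. All 9 genes lower in VHD animals were among the 12 that rose with this score, and both fits hold the 8 HD* animals. The score itself did not overlap between HD and VHD animals. The same overlap over all genes is not given, so nothing particular to the members can be read from it.

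Without control 6, 13 members rose and 3 fell, beside 30.9% and 19.4% of all genes, and 15 members were called in the same direction with and without it. The slopes of SQLE and DHCR7 were then 0.81 ± 0.12 and 0.74 ± 0.11, against 0.49 and 0.34 with all animals. FDFT1 was called only without control 6, and TM7SF2, HSD17B7 and SREBF1 only with it. With the oligodendrocyte, astrocyte and striatal neuron scores in a single model, 11 members were called for the striatal neuron score. The count over all genes in that model is given at the end, with the other settings.

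**Figure D4:**
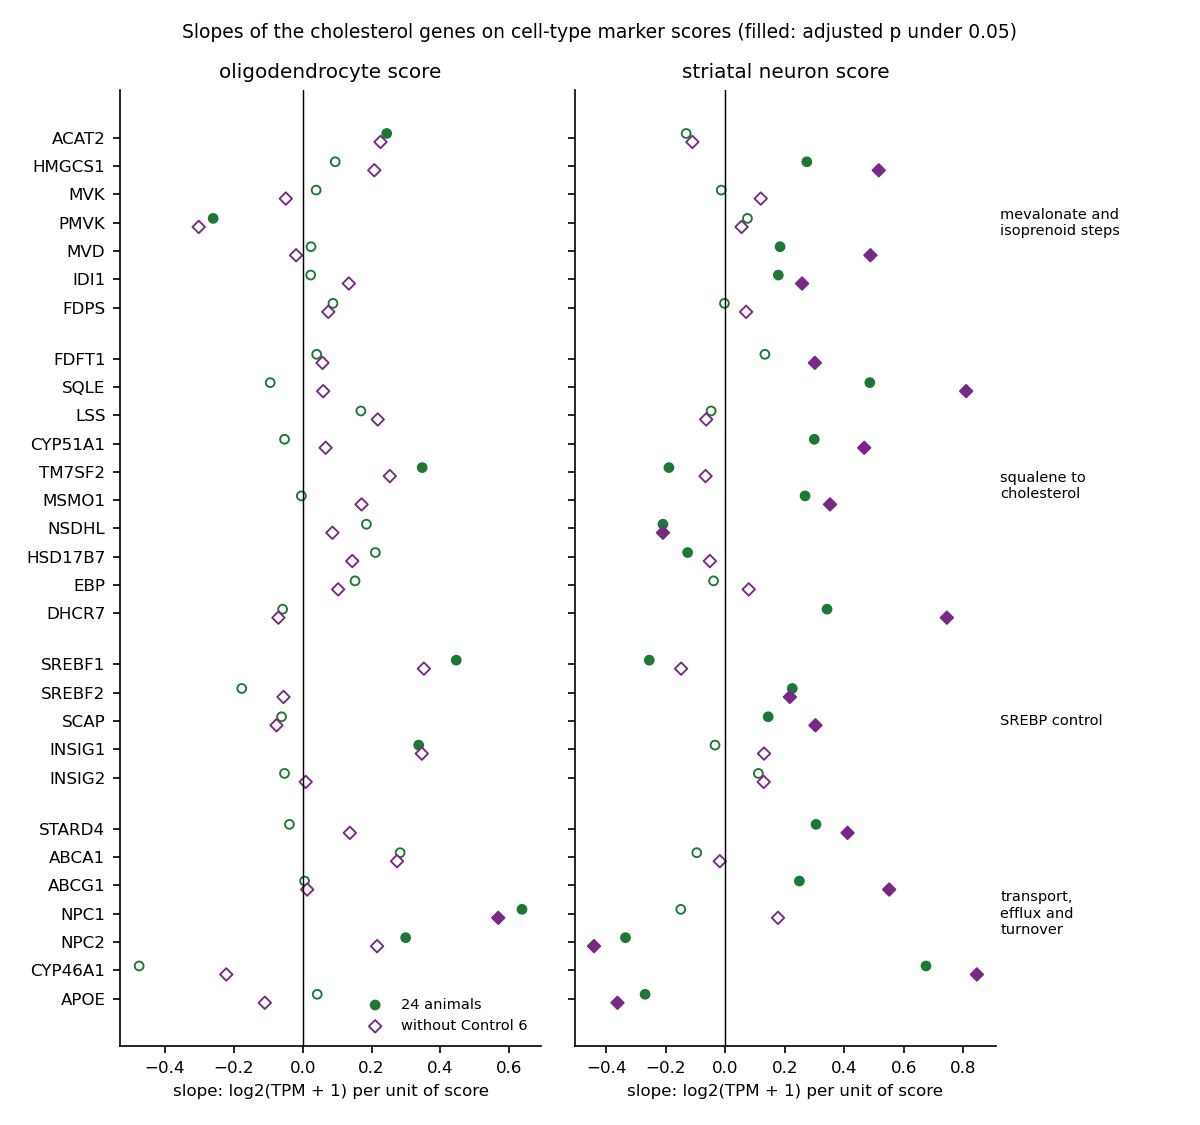
Slope of log2(TPM + 1) per unit of the oligodendrocyte score (left) and the striatal neuron score (right) for each gene. Circles are fits to 24 animals, diamonds fits without control 6, and filled symbols had a limma adjusted p under 0.05. NPC1 is the only filled diamond on the left, while CYP46A1 at 0.85 and SQLE at 0.81 are the largest on the right.

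With the astrocyte score 6 members rose and 6 fell, beside 21.5% and 11.5% of all genes. CYP46A1 had a slope of -1.62 ± 0.19 (limma adjusted p = 3.32e-06), NPC2 of 0.78 ± 0.13 (limma adjusted p = 9.37e-05) and MVD of -0.64 ± 0.17 (limma adjusted p = 0.00585). APOE, an astrocyte product, had a slope of 0.51 ± 0.21 that missed the threshold (limma adjusted p = 0.0607). TMM rescaling gave 8 rising and 12 falling members, beside 26.5% and 28.3% of all genes. Without control 6, 2 rose and 5 fell, beside 18% and 9.28% of all genes. In the model with 3 scores 2 members were called, and the slope was -0.70 for CYP46A1 (limma adjusted p = 0.0268), 0.28 for NPC2 (0.28) and -0.65 for MVD (0.135). With the microglia score 2 members rose, NPC2 and APOE, and 12 fell, beside 15.3% and 15.1% of all genes. CYP46A1 had a slope of -1.56 ± 0.28 (limma adjusted p = 0.000421), NPC2 of 0.80 ± 0.16 (limma adjusted p = 0.000765) and MVD of -0.84 ± 0.17 (limma adjusted p = 0.000924). With group and cohort in the model 9 members were called for the microglia score. No count over all genes is given for that model, so nothing particular to the members can be read from it. The count over all genes for the astrocyte score in the model with 3 scores is given at the end. The scores were taken from the same libraries as the genes and share their scaling.

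The synthesis enzymes were positively correlated on the whole. Over 24 animals the median Pearson's r of log2(TPM + 1) was 0.38 over the 136 pairs of 17 enzymes, 0.43 over the 45 pairs of the sterol steps, 0.243 over the 21 pairs of the mevalonate steps and 0.179 over all pairs of genes tested. These are descriptions without a test, and all pairs share the libraries and their scaling. Without control 6 the enzymes' median was 0.452 and that of all pairs 0.193. The closest pair was HMGCS1 and CYP51A1 at 0.95, followed by SQLE and DHCR7 at 0.931. INSIG1, itself a target of the SREBP factors, had the highest median r with the enzymes among all members at 0.6. PMVK and APOE had the lowest, at -0.373 and -0.386, although PMVK is one of the enzymes. CYP46A1 and NPC2 were the most opposed pair at -0.908, and SQLE and APOE had -0.847.

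**Figure D5:**
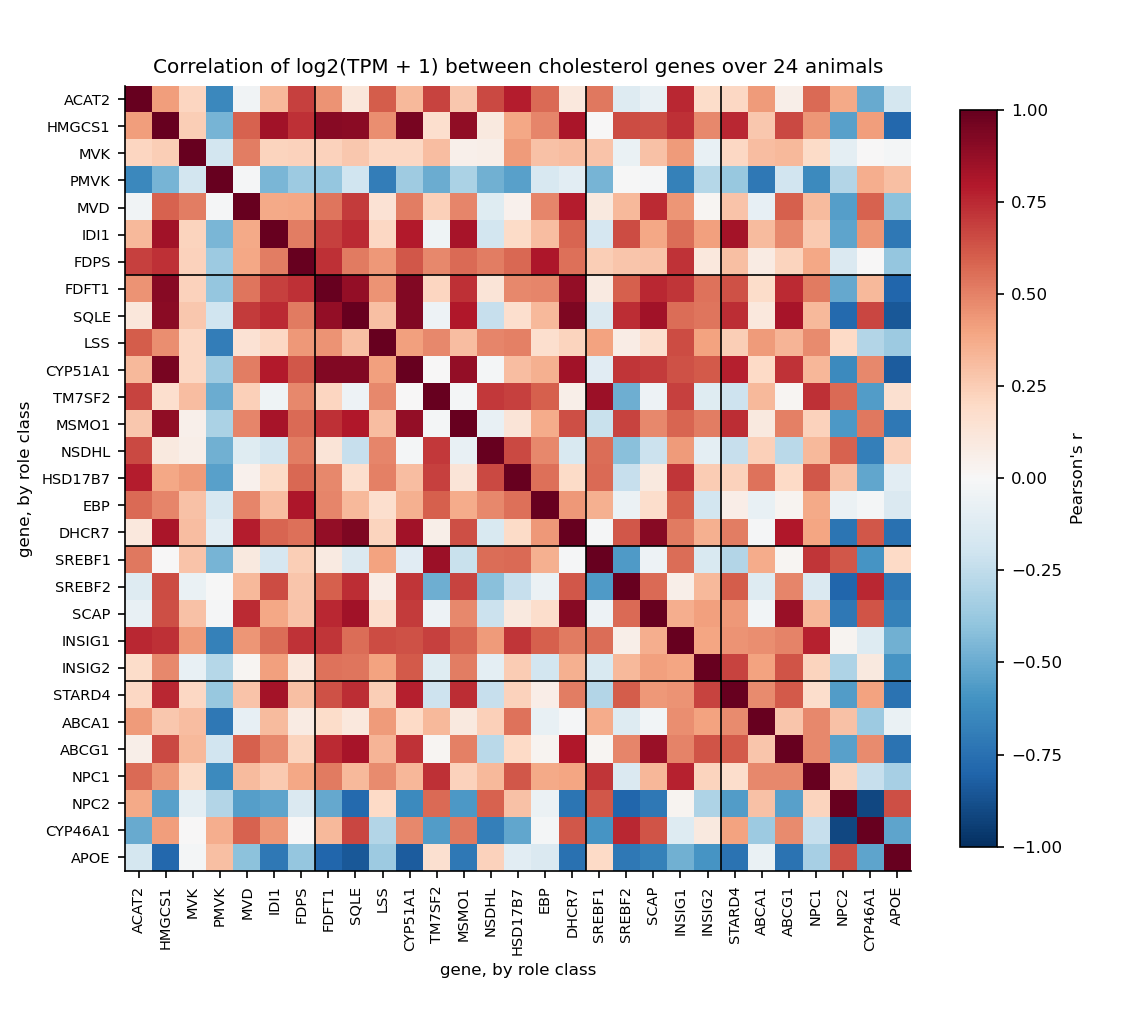
Pearson's r of log2(TPM + 1) over 24 animals for each pair of the 29 genes, ordered by role class and divided by black lines, from -1 in blue to 1 in red. HMGCS1, FDFT1, SQLE, CYP51A1, MSMO1 and DHCR7 form a red group, and most cells of the APOE, NPC2 and PMVK rows are blue.

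A score over all 29 members, the mean of their centred log2(TPM + 1), was 0.04 ± 0.19 in controls, 0.00 ± 0.17 in LD* animals and -0.04 ± 0.21 in HD* animals (SD, n = 8 each). It was between 0.02 and 0.26 in HD animals and between -0.40 and -0.01 in VHD animals. The median log2 difference of VHD from HD animals was also below 0 over all genes, at -0.17. That of the members moved from -0.32 to -0.11 after TMM rescaling.

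Other genes of the pathway were described by the same tests, with 43 of 45 listed genes at 1 TPM or more. None was called in any of the 3 group comparisons, for intake, for cohort or for the interaction. CAV1, the caveolar coat protein that binds cholesterol, had the smallest p against controls in HD* animals, with a difference of -0.65 ± 0.14 (limma adjusted p = 0.706), followed by the oxysterol hydroxylase CYP7B1 at -0.60 ± 0.27. Between VHD and HD animals 4 of 43 were lower and 0 higher, beside the 11.4% and 3.23% of all genes. SCARB1, a receptor for high density lipoprotein, differed by -0.74 ± 0.16 (limma adjusted p = 0.0148) and LRP1, an APOE receptor, by -0.59 ± 0.15 (limma adjusted p = 0.0236). With the oligodendrocyte score 9 of 43 rose and 0 fell, beside 6.91% and 1.35% of all genes, led by the desaturase SCD at 0.65 ± 0.06 (limma adjusted p = 5.63e-08) and the lysosomal lipase LIPA at 0.71 ± 0.08 (limma adjusted p = 3.69e-07). With the striatal neuron score 8 rose and 9 fell, close to the 22.3% and 20.1% of all genes. SCARB1 had a slope of 0.49 ± 0.04 (limma adjusted p = 4.76e-10) and LCAT, which esterifies cholesterol, one of -0.65 ± 0.07 (limma adjusted p = 9.73e-08). The comparisons with controls and the fits on both scores held control 6, and no fit without it is given for these other genes. Among the 29 members, the calls for the oligodendrocyte score went from 7 to 1 without that animal.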

How the data were processed

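RNA from the NAcc of 24 animals was examined, 1 library each. As far as the sources state, polyA-selected TruSeq libraries were sequenced on a HiSeq, aligned by the authors to the MacaM assembly with STAR 2.5.2b (unique alignments), counted with HTSeq 0.6.1p1 and tested by the authors with DESeq2. The deposited values are TPM made by the authors (column totals 999998 to 1000000), as read from these totals and from low values that rarely tie. The table is named for DESeq2-normalized counts by the authors, and how counts became TPM is not given in the sources used here. Libraries are described as strand-specific and paired-end, but the strand setting of the counting is not given, so reads of antisense neighbours may not be separated. The study gives an average depth but not the depth of each library, and TPM keeps none, so tests on counts were not possible. All 24 columns were mapped by animal number and no 2 were identical.

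TPM values were analysed as log2(TPM + 1), which understates changes of low genes. Tests covered the 13637 genes averaging 1 TPM or more and used limma 3.58.1 under R 4.3.3 (empirical Bayes with a trend, Benjamini-Hochberg over all of them). The group model held all 24 animals, VHD against HD the 8 HD* animals, intake the 16 drinkers and the interaction the 13 animals of these groups in cohorts 5 and 7a. Exact permutation tests were two-sided and unadjusted. Single genes are named with full statistics by rank of p (5 members for each group comparison and for the oligodendrocyte score, 3 for every other test, 2 other pathway genes for each comparison described), and other genes are named, after their values were seen, where they passed a test or mark an extreme. The members and lists were chosen with earlier results of these data known. Alternatives were pseudocounts of 0.1 and 8, a filter of 10 TPM and none, TMM (written for this purpose) and quantile scaling, covariates, array weights, subsets and each animal left out. The tests were tested on simulated data. Levels and plots used Python 3.11.15, numpy 2.4.6, pandas 2.3.3 and matplotlib 3.10.9. No sequence is printed, and promoters were not analysed here. The RefSeq gene table, of another assembly, served for names only.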

Additional observations from a re-analysis of the deposited data

Results flagged for a closer look

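In 108 groups of 4 or 8 values, the gap of the lowest or highest animal to its nearest neighbour was divided by the range of the group. An animal was marked where this ratio exceeded Dixon's 95% critical value, which chance gives in about 1 of 20 groups. This marked 11 values. LD* 4 gave 6 of them, all high: ACAT2 at 138 TPM against 71.0 to 85.5 TPM in the other LD* animals, FDPS at 224 TPM against 114 to 159 TPM, MSMO1 at 158 TPM against 73.2 to 110 TPM, TM7SF2 at 57.0 TPM against 35.0 to 44.2 TPM, EBP at 65.3 TPM against 38.8 to 50.7 TPM and INSIG1 at 53.7 TPM against 24.8 to 33.6 TPM. Its oligodendrocyte score was 0.771 and its striatal neuron score -0.702, and their part in these values was not tested.

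Control 6, the animal low in striatal neuron markers, was high for TM7SF2 at 83.6 TPM against 39.9 to 50.4 TPM in the other controls and for SREBF1 at 109 TPM against 40.1 to 69.6 TPM. HD* 7 was high for EBP at 71.0 TPM against 47.1 to 54.2 TPM, and HD* 4 for ABCA1 at 15.4 TPM against 4.84 to 9.25 TPM. Control 8 had a score over the members of -0.362 against -0.023 to 0.259 in the other controls, with a striatal neuron score of -1.036.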

How the results depend on the processing

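The counts of 0 members in the 3 group comparisons, the intake slope, the cohort test and the interaction stayed at 0 under every alternative run, and the signs of the named genes did not reverse in any. The 9 members called between VHD and HD animals became 4 without a filter. With 1 animal left out they were 2 to 12, and no share over all genes is given for those fits. They became 0 with either the striatal neuron or the microglia score as a covariate (added after seeing the data). Over all genes, 1997 calls became 2999 with quantile scaling and 0 with those covariates. The 7 members called for the oligodendrocyte score became 3 with TMM, 3 with group and cohort and 4 with 3 scores in the model. The 1126 genes called became 451 and 659 in the models with group and cohort and with 3 scores. With TMM 6.22% of all genes rose with that score and 5.23% fell, against 6.91% and 1.35% without rescaling. Members called were 1 to 9 with 1 animal left out, with a share over all genes given only without control 6. For the astrocyte score 12 members became 20 with TMM, 2 with 3 scores and 7 without control 6 (added after seeing the data). The 4494 genes called became 7467 with TMM and 396 with 3 scores. With a filter of 10 TPM they were 2970, but fewer genes were tested there, so these counts cannot be compared directly. For the striatal neuron score 18 members and 5776 genes became 11 and 3620 with 3 scores. For the microglia score 14 members became 9 with group and cohort, a model for which no count over all genes is given. The 4154 genes called became 7059 with TMM and 6867 with quantile scaling. The cause was not tested. By exact permutation 2, 1 and 0 members had an unadjusted p under 0.05 in HD* and LD* animals against controls and in HD* against LD* animals, against 2, 1 and 1 by limma. The microglia score was not among the 3 scores, so that model was not run for it. No paired analysis was possible because animals carry no numbers that link the groups, and replicate numbers only name them. The depth of each library is not given in the sources used here, so the limits it sets for single values could not be given.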
